A study of Mus musculus with 24 samples.

Results

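Glucose transporters and glycolytic enzymes were followed in mouse embryo fibroblasts (MEFs) across all 12 groups of the study. The set holds 10 genes: the transporters Slc2a1 and Slc2a3, the hexokinases Hk1 and Hk2, the phosphofructokinase subunits Pfkl and Pfkp, Aldoa, Pgk1, Ldha and the pyruvate dehydrogenase kinase Pdk1. All probes that the platform annotation pairs with these symbols were taken. They were 16 probes of 9 genes, of 45281 probes and 19057 genes in all, and all 16 exceeded the background level on at least 1 array. No probe carried the symbol Hk2, so Hk2 has no value here.

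The cells were MEFs labelled Siah1a-/-::Siah2-/- (KO), a double knockout of the ubiquitin ligases Siah1a and Siah2, and wild-type MEFs (WT). The study also used cells heterozygous for Siah1a under the name of the double knockout, outside the arrays, and KO here stands for the array label. Each genotype was left untreated or was held for 12 h in 1% O2 (OD, oxygen deprivation), in medium lacking glucose (GD) or under both (OGD), or was treated for 6 h with thapsigargin (TG) or tunicamycin (TM). TG blocks the calcium pump of the endoplasmic reticulum and TM blocks N-glycosylation, and both cause endoplasmic reticulum stress. Each of the 12 groups had 2 Illumina Mouse-6 BeadChip arrays. The labels do not say whether the 2 arrays came from separate cultures, embryos or cell lines, so the p-values below measure the spread between these arrays, which may be technical.

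Glucose enters a fibroblast through facilitative transporters of the Slc2a family, is trapped by hexokinase and is broken down to pyruvate by the glycolytic enzymes. When oxygen is scarce, the transcription factor HIF-1 is no longer marked for destruction by the prolyl hydroxylases of the Egln family and raises the transcription of many of these genes. Lactate dehydrogenase then turns pyruvate into lactate, and pyruvate dehydrogenase kinase keeps pyruvate out of the mitochondria. Siah ligases act on Egln proteins, which is how the genotype of these cells touches oxygen sensing. HIF-1 binds short DNA motifs whose core reads ACGTG or GCGTG.

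In RefSeq promoter windows of GRCm38.p6 (250 bases before to 50 bases after a transcript start), 9 of the 10 genes had at least 1 window; Slc2a3 had no entry. All 9 had at least 1 match of the core on either strand, in 11 of their 14 windows. Of all 32851 windows, 43.8% held such a match, and overlapping matches were counted as 1. The sequences below show, for the 8 genes with both a probe and a window, the match nearest to the start that began and ended before it. Each runs 5′ to 3′ along the gene's strand, with the core in capitals.
Slc2a1, chr4:119108697-119108725, plus strand: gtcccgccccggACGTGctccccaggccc
Hk1, chr10:62340418-62340447, minus strand: cactgtgccacCACGCGTGaccgcgcgctc
Pfkl, chr10:78009890-78009918, minus strand: atttgtagactgGCGTGcgctccgccttt
Pfkp, chr13:6648778-6648806, minus strand: cgctcgggcgggGCGTGggcggctcctgc
Aldoa, chr7:126799364-126799392, minus strand: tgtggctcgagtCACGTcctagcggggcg
Pgk1, chrX:106186957-106186985, plus strand: aaatggaagtagCACGTctcactagtctc
Ldha, chr7:46845758-46845786, plus strand: cgtgggttcccgCACGTccgctgggctcc
Pdk1, chr2:71873134-71873162, plus strand: ccgcctacatggGCGTGtctttaaccagg
Their cores began 36, 15, 99, 23, 126, 131, 34 and 78 bases before the start, in the order shown. A match is a description of the letters in the window and no evidence of binding.

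Signals below are the deposited normalized intensities, on a linear scale. The background level, the upper tail of 0.01 of the background distribution, was 235. A gene with several probes is represented by the probe with the highest mean log2 signal. A gene was called when limma's Benjamini-Hochberg adjusted p was under 0.05 and its signal differed by at least 2-fold. Over all genes, 13114 were tested in each of 25 comparisons. The duplicates of a group correlated between 0.954 and 0.994 over probes. Siah1a was at 178 to 303 on the 12 KO arrays and at 1155 to 1839 on the 12 WT arrays, and Siah2 was at 239 to 718 on KO arrays and at 505 to 2014 on WT arrays. Siah2 therefore exceeded the background level on all 12 KO arrays, the 2 ranges overlapped, and Siah2 was called higher with TG in KO as in WT cells. Whether its probe lies in the deleted part is not given in the sources used here, so this signal does not check the Siah2 label. Xist was at 165 to 326 on KO arrays and at 1512 to 3493 on WT arrays, and the Y-linked Eif2s3y at 2339 to 4538 on KO arrays and at 159 to 204 on WT arrays, so the genotypes also differed in genes of the sex chromosomes. Of 11 measured fibroblast markers, 10 exceeded the background level on every KO array and 8 on every WT array. Their summed signal was 81744 to 155404 in KO and 56668 to 90888 in WT. Lum stayed below the background level on every KO array and Thy1 on every WT array. The part of these genes and markers in the genotype differences was not tested.

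By the array names in the study, the untreated and GD arrays of both genotypes and the WT OD and WT OGD arrays shared a first pair of BeadChips. All TG and TM arrays and those of KO OD and KO OGD shared a second pair. KO was therefore compared with WT within chips in untreated, GD, TG and TM cells, but across chips in OD and OGD. Stress was compared with untreated cells within chips for WT OD, GD and OGD and for KO GD, and across chips for the rest. Where a comparison crosses chips, chip and group cannot be told apart. OGD against OD stayed within chips in both genotypes. OGD against GD stayed within chips in WT and crossed them in KO. The duplicates of a group lay on different chips of their pair, and the replicate number may follow the chip.

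Oxygen deprivation, with or without glucose, raised most of the set in both genotypes, and no member was called higher with GD, TG or TM. In 7 of the 9 genes the 4 oxygen-deprived groups had the 4 highest means of the 12 groups. In 6 of them (Slc2a1, Hk1, Pfkl, Aldoa, Pgk1 and Pdk1) all 8 oxygen-deprived arrays lay above all 16 others. In OD, 7 of 9 members were called higher in KO, against 0.297% of all genes tested, and 5 of 9 in WT, against 0.252%. In OGD, 8 of 9 were called higher in KO, against 1.01% of all genes, and 6 of 9 in WT, against 2.22%. The median log2 fold change of the 9 genes was 1.66 in KO OD, 1.23 in WT OD, 2.32 in KO OGD and 1.39 in WT OGD, and the median of all genes tested lay between -0.02 and 0.00 in these comparisons. No member was called lower in any of these 4 comparisons. Slc2a3 lay below the background level on every WT array, so its response in WT was not measured. It is still counted among the 9 genes in the WT counts and WT medians here and below. The calls rest on 1 spread shared by all 12 groups, although the groups were unequal. Duplicates lay 2-fold apart for 1.89% to 8.74% of probes in the untreated, OD, GD and OGD groups. In the TG and TM groups this was 0.0462% to 0.608%. The shared spread can thus be too small for OD and OGD and too large for TG and TM. A fit of only the 4 arrays of each comparison called 0 members in any stress against untreated cells. Over all genes it called 0 in KO OD, 3 in KO OGD, 0 in WT OD and 0 in WT OGD. It called 853 in KO TG, 565 in KO TM, 464 in WT TG and 162 in WT TM. How far the unequal spread set the member calls was not tested.

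Between the genotypes few members differed beyond the call rule. KO cells had 1 of 9 members called higher (Slc2a3) and 1 of 9 lower (Slc2a1) when untreated, against 2.35% and 1.49% of all genes. They had 1 higher (Slc2a3) and 1 lower (Pfkp) in OD, against 2.25% and 1.70%. In GD and OGD, Slc2a3 was called higher and no member lower, against 2.14% and 1.55% of all genes in GD and 3.10% and 2.03% in OGD. With the replicate number as a block, Pfkp was also called lower in untreated, OGD, TG and TM cells. A fit of only the 4 arrays compared called it lower in TG and TM, and not in OD. With TM, Ldha was called lower and no member higher, against 2.10% and 3.67% of all genes. With TG, limma called 0 of 9 members in the main fit, while 3.19% of all genes were called higher and 1.86% lower. An unadjusted p under 0.05 was found for 4 of 9 members in TG and 6 in TM. It was found for 7 in untreated cells, 2 in OD, 4 in GD and 2 in OGD. Of all 13114 genes, 2890 had such a p in TG, 3044 in TM and 2330 in untreated cells. In OD, GD and OGD these were 2496, 2274 and 3160. The median log2 fold change of KO over WT for the 9 genes was -0.61 in untreated cells, -0.21 in OD, -0.40 in GD, 0.05 in OGD, -0.34 in TG and -0.81 in TM.

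**Figure D1:**
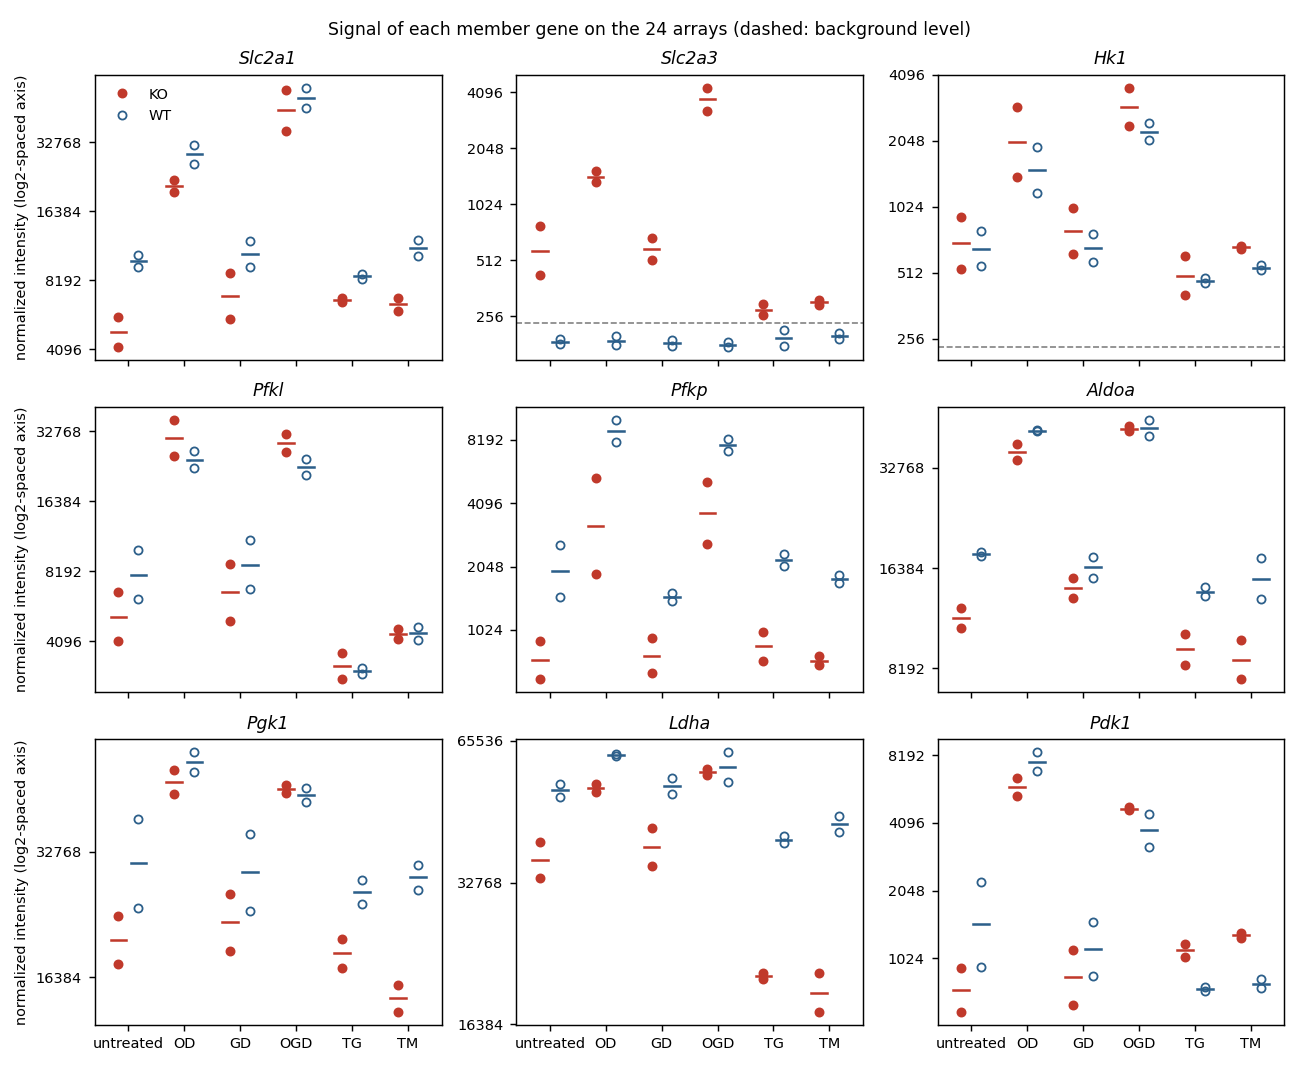
Normalized intensity of the representative probe of each measured gene on the 24 arrays, on log2-spaced axes, with KO (filled) left of WT (open) in each condition; short lines are the means of the log2 values of 2 arrays and the dashed line is the background level of 235. The OD and OGD arrays stand above the rest for most genes, and Slc2a3 lies below the dashed line on all 12 WT arrays.

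Slc2a1, the widespread basal glucose transporter of fibroblasts, had its highest levels in OGD. In KO cells it was at 36749 and 55100 in OGD, 19803 and 22393 in OD, 5548 and 8848 in GD and 4202 and 5663 in untreated cells. In WT cells it was at 46054 and 56625 in OGD, 31905 and 26335 in OD, 9368 and 12187 in GD and 9356 and 10548 in untreated cells. Levels in TG were 6622 and 6852 in KO and 8737 and 8311 in WT, and in TM 6026 and 6895 in KO and 10446 and 12312 in WT. The OGD arrays were above the OD arrays in each genotype without overlap, and the OD arrays above the others.

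In KO, Slc2a1 rose 9.23-fold in OGD (log2 fold change 3.21, adjusted p = 5.74e-06) and 4.32-fold in OD (2.11, adjusted p = 0.000434). In WT it rose 5.14-fold in OGD (2.36, adjusted p = 3.63e-05) and 2.92-fold in OD (1.54, adjusted p = 0.00694). The standard error of these log2 fold changes was 0.23. The WT OD call ended without WT untreated replicate 1 (adjusted p = 0.130), WT untreated replicate 2 (adjusted p = 0.0547) or WT OD replicate 1 (adjusted p = 0.0885). The KO response exceeded the WT response by 0.84 ± 0.33 (SE) on the log2 scale in OGD and by 0.57 in OD, which the test did not call (adjusted p = 0.894 and 1.00). Untreated KO cells had 49.1% of the untreated WT signal (log2 fold change -1.03, adjusted p = 0.0163), and the 2 pairs of arrays did not overlap. That call ended without KO untreated replicate 1 (-0.81, adjusted p = 0.208) or WT untreated replicate 2 (-0.94, adjusted p = 0.145), and in a fit of only these 4 arrays (adjusted p = 0.135). Under OGD the KO and WT arrays overlapped, with a log2 fold change of -0.18.

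Slc2a3, a high-affinity glucose transporter best known from neurons, was above the background level on all 12 KO arrays and on none of the 12 WT arrays. In KO it was at 3245 and 4340 in OGD, 1553 and 1342 in OD, 678 and 513 in GD and 782 and 425 in untreated cells. It was lowest in KO cells treated with TG, at 299 and 260, and with TM, at 313 and 297. The 12 WT values spanned 176 to 218, with no order among the conditions. The probe therefore met the rule of exceeding the background level on at least 1 array through its KO arrays alone. With WT at the background level, Slc2a3 was at least 15.97-fold higher in KO in OGD (adjusted p = 8.46e-09), at least 6.15-fold in OD (adjusted p = 5.48e-07), at least 2.51-fold in GD (adjusted p = 0.000236) and at least 2.45-fold in untreated cells (adjusted p = 0.000313). The adjusted p values belong to the fitted differences between KO and WT signals, not to these lower bounds. Each of the 4 calls held when any single array was left out. In a fit of only the 4 arrays compared, those in GD and untreated cells ended (adjusted p = 0.0538 and 0.133). Among all genes, 3.10% were called higher in KO in OGD, 2.25% in OD, 2.14% in GD and 2.35% in untreated cells. The KO and WT arrays did not overlap in TG and TM either, but the differences, at least 1.19-fold and 1.30-fold, were not called (adjusted p = 0.245 and 0.139).

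Within KO cells, Slc2a3 rose 6.51-fold in OGD (log2 fold change 2.70, SE 0.23, adjusted p = 1.83e-05) and 2.51-fold in OD (1.32, adjusted p = 0.0184). The OD call ended without KO OD replicate 1 (adjusted p = 0.220), KO OD replicate 2 (adjusted p = 0.104) or KO untreated replicate 2 (0.89, adjusted p = 0.295). In TG its signal fell to 48.3% of that of untreated KO cells (-1.05, adjusted p = 0.00773), a call that ended without KO untreated replicate 1 (-0.61, adjusted p = 0.141) or KO TG replicate 2 (adjusted p = 0.0686). In TM the log2 fold change was -0.92 (adjusted p = 0.0286), under the 2-fold threshold. Without KO untreated replicate 2 it was -1.36 and called (adjusted p = 0.00275). In WT no response could be measured, since both sides of each comparison lay below the background level. No difference between the KO and WT responses of Slc2a3 is given for that reason. KO OGD cells lay on other chips than untreated KO cells and WT OGD cells, whereas KO OGD and KO OD arrays shared chips and differed by 1.38 (adjusted p = 0.0179).

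**Figure D2:**
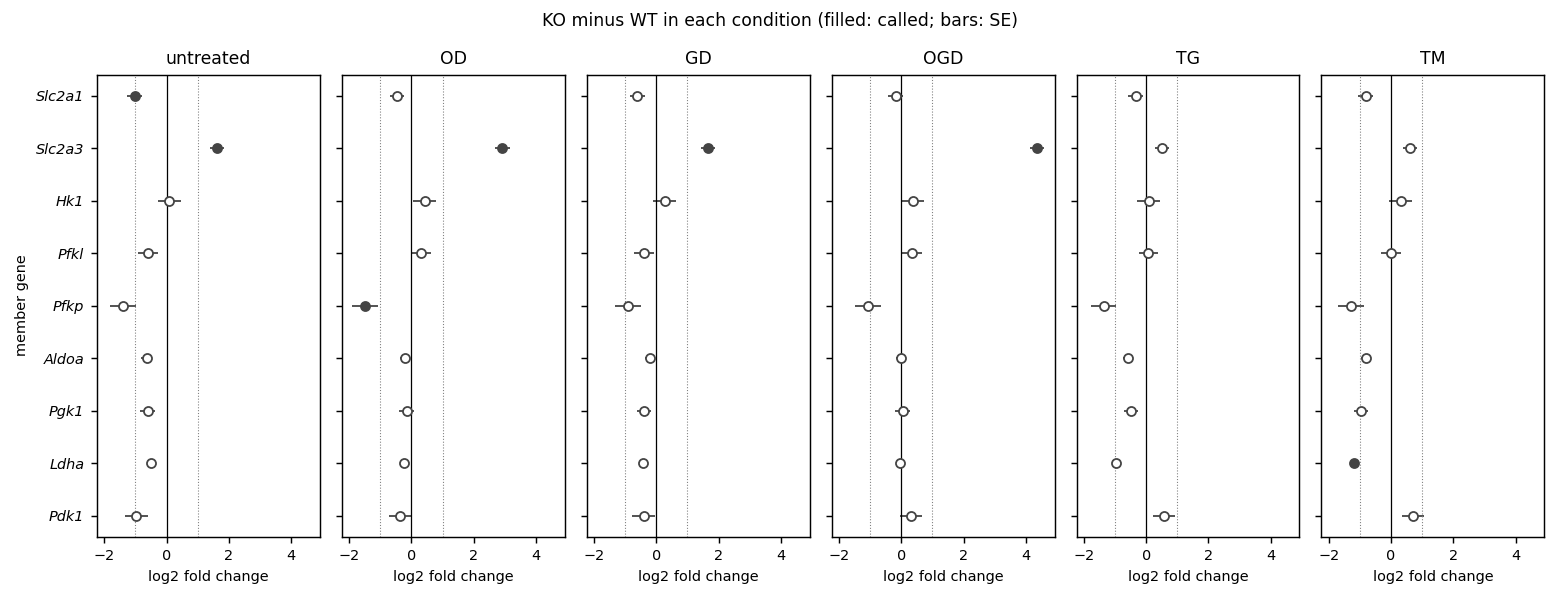
Log2 fold change of KO over WT for each gene in each of the 6 conditions, with bars for the standard error and filled points for called genes; dotted lines mark 2-fold. Slc2a3 stands to the right in untreated, OD, GD and OGD cells, up to a fitted 4.38 in OGD with its WT arrays below the background level, and Pfkp lies between -1.50 and -0.92 in all 6 conditions.

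Hk1, a hexokinase that phosphorylates incoming glucose, was called higher in OGD in both genotypes. In KO it was at 2381 and 3582 in OGD, 1402 and 2904 in OD, 624 and 1014 in GD and 535 and 916 in untreated cells. In WT it was at 2071 and 2456 in OGD, 1181 and 1920 in OD, 573 and 766 in GD and 548 and 790 in untreated cells. The TG and TM arrays lay between 404 and 679. Oxygen-deprived arrays exceeded all others in both genotypes, while KO and WT overlapped in untreated, OD, GD and OGD cells. The log2 fold change in OGD was 2.06 in KO (SE 0.37, adjusted p = 0.00765) and 1.78 in WT (adjusted p = 0.00785). In OD it was 1.53 in KO (adjusted p = 0.204) and 1.19 in WT (adjusted p = 0.515), which were not called. With the replicate number as a block both were called (adjusted p = 0.00173 in KO and 0.0159 in WT). The OGD call ended in KO without KO untreated replicate 1 (1.67, adjusted p = 0.103) or KO OGD replicate 2 (1.77, adjusted p = 0.151), and in WT without WT untreated replicate 1 (1.51, adjusted p = 0.0661) or WT OGD replicate 2 (1.65, adjusted p = 0.0570).

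Pfkl and Pfkp encode subunits of phosphofructokinase, which carries out the committed step of glycolysis. Pfkl was at 26668 and 32119 in KO OGD, 25673 and 36749 in KO OD, 5017 and 8787 in KO GD and 4090 and 6689 in untreated KO cells. In WT it was at 24905 and 21298 in OGD, 22764 and 26984 in OD, 6895 and 11129 in GD and 6213 and 10099 in untreated cells. In both genotypes the oxygen-deprived arrays were clear of the rest, and OD and OGD arrays overlapped. Pfkl was lowest with TG, at 2805 and 3628 in KO and 2964 and 3131 in WT, followed by TM, at 4201 and 4627 in KO and 4132 and 4738 in WT. In KO, Pfkl rose 5.87-fold in OD (log2 fold change 2.55, SE 0.31, adjusted p = 0.000994) and 5.59-fold in OGD (2.48, adjusted p = 0.000470). In WT it rose 3.13-fold in OD (1.65, adjusted p = 0.0392) and 2.91-fold in OGD (1.54, adjusted p = 0.00701).

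The KO calls for Pfkl held when any single array was left out. The WT OD call ended without either WT untreated array or either WT OD array (adjusted p = 0.0547 to 0.501), and the WT OGD call without WT untreated replicate 1 (1.19, adjusted p = 0.0737). In WT cells TG lowered Pfkl to 38.5% of the untreated signal (-1.38, adjusted p = 0.0139), while 1.76% of all genes were called lower. That call ended without WT untreated replicate 2 (-1.03, adjusted p = 0.175) or either WT TG array (adjusted p = 0.115 and 0.0847). In KO cells the change with TG was -0.71 (adjusted p = 0.197). The difference between the KO and WT responses to TG was 0.67 ± 0.44 (SE, adjusted p = 0.966).

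Pfkp was lower in KO than in WT throughout. It was at 2613 and 5147 in KO OGD against 8325 and 7247 in WT OGD, and at 1890 and 5425 in KO OD against 8044 and 10202 in WT OD. In untreated cells it was at 596 and 907 in KO against 1461 and 2588 in WT, and in GD at 639 and 934 against 1536 and 1400. In TG it was at 728 and 1004 in KO against 2360 and 2072 in WT, and in TM at 768 and 696 against 1710 and 1867. On this representative probe the KO and WT arrays did not overlap in any of the 6 conditions. The log2 fold change of KO over WT ranged between -1.50 and -0.92 (SE 0.41) and was called in OD (-1.50, adjusted p = 0.0473), where 1.70% of all genes were called lower. The OD call ended without WT OD replicate 1 (adjusted p = 0.0923), WT OD replicate 2 (-1.33, adjusted p = 0.272) or KO OD replicate 1 (-0.74, adjusted p = 0.546), and the value was -2.26 without KO OD replicate 2. Adjusted p in the other conditions was between 0.0573 and 0.313. With the replicate number as a block, Pfkp was also called lower in untreated (adjusted p = 0.0129), OGD (0.0381), TG (0.0109) and TM cells (0.0149), which left GD as the condition without a call.

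Oxygen deprivation raised Pfkp in both genotypes. In KO it rose 4.99-fold in OGD (log2 fold change 2.32, adjusted p = 0.00785) and 4.36-fold in OD (2.12, adjusted p = 0.0474). In WT it rose 3.995-fold in OGD (2.00, adjusted p = 0.00816) and 4.66-fold in OD (2.22, adjusted p = 0.0350). The responses differed by 0.32 in OGD and by -0.10 in OD on the log2 scale, each with a standard error of 0.59. The KO OD call ended without KO untreated replicate 1 (adjusted p = 0.737) or 2 (adjusted p = 0.160) or KO OD replicate 2 (1.36, adjusted p = 0.672), and the value was 2.88 without KO OD replicate 1. The WT OD call ended without any of its 4 arrays in turn (adjusted p = 0.0597 to 0.457), the KO OGD call without KO untreated replicate 1 or KO OGD replicate 2 (adjusted p = 0.0971 and 0.167), and the WT OGD call without WT untreated replicate 1 (adjusted p = 0.0779).

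Aldoa, the aldolase that splits fructose bisphosphate, was called higher in OD and OGD in both genotypes. In KO it was at 43760 and 42205 in OGD, 34723 and 38595 in OD, 13320 and 15272 in GD and 12401 and 10827 in untreated cells. In WT it was at 45665 and 40888 in OGD, 42484 and 42400 in OD, 15345 and 17699 in GD and 17872 and 18381 in untreated cells. With TG it was at 10386 and 8396 in KO and 14335 and 13500 in WT, and with TM at 9953 and 7592 in KO and 17551 and 13251 in WT. The oxygen-deprived arrays of both genotypes lay at 34723 or above and all others at 18381 or below.

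Aldoa rose 3.71-fold in KO OGD (log2 fold change 1.89, SE 0.16, adjusted p = 2.32e-05) and 3.16-fold in KO OD (1.66, adjusted p = 0.000184). In WT it rose 2.38-fold in OGD (1.25, adjusted p = 0.000337) and 2.34-fold in OD (1.23, adjusted p = 0.00246). The WT OD call ended without WT untreated replicate 1 (1.21, adjusted p = 0.0501), and the other 3 calls held when any single array was left out. Between genotypes Aldoa stayed under the 2-fold threshold, with log2 fold changes of -0.81 in TM (adjusted p = 0.00466), -0.65 in untreated cells (adjusted p = 0.0318) and -0.58 in TG (adjusted p = 0.0430). It was called lower in KO TM without KO TM replicate 1 (-1.01) or WT TM replicate 2 (-1.01).

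Pgk1, an X-linked kinase that yields ATP in glycolysis, was at 47489 and 45437 in KO OGD, 45136 and 51525 in KO OD, 18914 and 26007 in KO GD and 17649 and 22939 in untreated KO cells. In WT it was at 46584 and 43312 in OGD, 51034 and 56855 in OD, 23647 and 36213 in GD and 24088 and 39308 in untreated cells. The untreated WT duplicates differed widely and the oxygen-deprived arrays of both genotypes lay above all others. Pgk1 rose 2.40-fold in KO OD (log2 fold change 1.26, SE 0.24, adjusted p = 0.0342) and 2.31-fold in KO OGD (1.21, adjusted p = 0.0142). In WT the values were 0.81 in OD (adjusted p = 0.423) and 0.55 in OGD (adjusted p = 0.188), and the KO and WT responses differed by 0.45 and 0.66 with standard errors of 0.33 (adjusted p = 1.00 and 0.975). The KO OD call ended without any of its 4 arrays in turn (adjusted p = 0.112 to 0.606), and the KO OGD call without KO untreated replicate 1 (adjusted p = 0.148) or without KO OGD replicate 2 (adjusted p = 0.126). With TM, Pgk1 was at 13527 and 15683 in KO and 26567 and 30537 in WT (log2 fold change -0.97, adjusted p = 0.0163), and with TG at 17278 and 20244 in KO and 24598 and 28028 in WT (-0.49, adjusted p = 0.285).

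Ldha, which converts pyruvate to lactate, stayed under the 2-fold threshold in every stress against untreated cells. In KO it was at 57030 and 55588 in OGD, 53196 and 51152 in OD, 35486 and 42762 in GD and 33568 and 39926 in untreated cells. In WT it was at 61972 and 53501 in OGD, 60916 and 61515 in OD, 50574 and 54630 in GD and 49865 and 53040 in untreated cells. The highest of them was 61972, and the highest value of any probe on any array was 66421. How far the top of the scale limited the folds of Ldha, Pgk1, Aldoa and Slc2a1 was not tested. Log2 fold changes of Ldha were 0.62 in KO OGD (SE 0.13, adjusted p = 0.0239), 0.51 in KO OD (adjusted p = 0.282), 0.16 in WT OGD and 0.25 in WT OD.

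Ldha was called lower in KO than in WT with TM. With TM it was at 17421 and 21025 in KO and 42040 and 45358 in WT, which is 43.8% of the WT signal (log2 fold change -1.19, adjusted p = 2.01e-05). This was called whichever array was left out, and 2.10% of all genes were called lower in KO with TM. With TG it was at 20486 and 21060 in KO and 41163 and 39777 in WT (-0.96, adjusted p = 0.000176), under the 2-fold threshold. In untreated cells the log2 fold change of KO over WT was -0.49 (adjusted p = 0.0430). Within KO cells, Ldha changed by -0.94 with TM (adjusted p = 0.000622) and by -0.82 with TG (adjusted p = 0.000865). Without KO untreated replicate 1 or KO TM replicate 2 the TM change was -1.06 or -1.07 and called. In WT it changed by -0.24 with TM and -0.35 with TG, and the KO response minus the WT response was -0.70 with TM (SE 0.19, adjusted p = 0.168) and -0.47 with TG (adjusted p = 0.603).

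Pdk1, the kinase that switches off pyruvate dehydrogenase, was called higher in OD and OGD in both genotypes. In KO it was at 5392 and 6474 in OD, 4665 and 4806 in OGD, 636 and 1119 in GD and 591 and 926 in untreated cells. In WT it was at 6949 and 8449 in OD, 4499 and 3207 in OGD, 853 and 1482 in GD and 939 and 2231 in untreated cells. With TG it was at 1038 and 1187 in KO and 762 and 732 in WT, and with TM at 1329 and 1256 in KO and 824 and 756 in WT. In both genotypes the OD arrays were above the OGD arrays and these above all others.

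Pdk1 rose 7.99-fold in KO OD (log2 fold change 2.997, SE 0.36, adjusted p = 0.000879), 6.40-fold in KO OGD (2.68, adjusted p = 0.000749), 5.29-fold in WT OD (2.40, adjusted p = 0.00631) and 2.62-fold in WT OGD (1.39, adjusted p = 0.0253). The KO calls held when any single array was left out. The WT OD call ended without WT untreated replicate 1 (1.78, adjusted p = 0.130) or WT OD replicate 2 (2.26, adjusted p = 0.0997), and the value was 3.03 without WT untreated replicate 2. The WT OGD call ended without WT untreated replicate 1 (0.77, adjusted p = 0.251) or WT OGD replicate 1 (1.15, adjusted p = 0.105), and the value was 2.02 without WT untreated replicate 2. Changes with TG and TM were 0.59 and 0.80 in KO and -0.95 and -0.87 in WT, and the KO minus WT responses were 1.54 and 1.68 (SE 0.51, adjusted p = 0.374 and 0.262). These rest on the untreated WT pair, which lay 1.25 apart on the log2 scale. Without WT untreated replicate 1 the WT changes were called with TG (-1.58, adjusted p = 0.0198) and TM (-1.50, adjusted p = 0.0370), as were untreated KO over WT (-1.59, adjusted p = 0.0184) and the difference in the TM response (2.30, adjusted p = 0.0480).

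**Figure D3:**
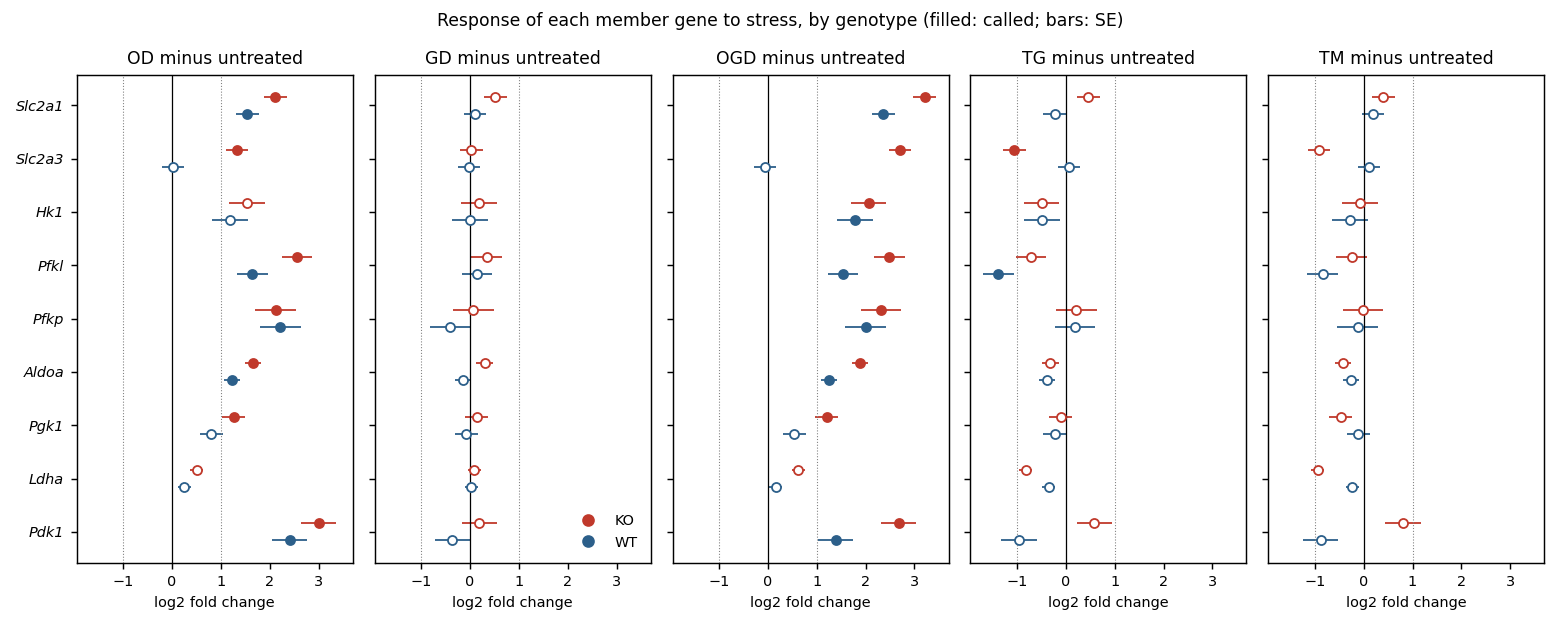
Log2 fold change of each stress over untreated cells for each gene, with KO above WT, bars for the standard error and filled points for called genes; dotted lines mark 2-fold. The OD and OGD panels hold the points to the right of 1, and no point in the GD panel passes 2-fold.

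The 7 further probes of the same genes were less bright and none was called in any of the 25 comparisons. The second Hk1 probe rose by 1.54 in WT OGD (adjusted p = 0.278) and the second Pfkp probe by 1.63 in WT OD (adjusted p = 1.00) and 1.50 in WT OGD (adjusted p = 0.304). On this second Pfkp probe the KO and WT arrays overlapped in untreated, OD and OGD cells and not in GD, TG and TM. The second Pfkl probe, at 253 to 579 on all arrays, changed by 0.63 and 0.72 in KO OD and OGD. The other probes of Pgk1 and Pdk1 and the third of Pfkp spanned 149 to 411, close to the background level. With the mean of a gene's probes in place of the representative probe, calls ended for Pfkp in KO OD, KO OGD, WT OD, WT OGD and KO over WT in OD (adjusted p = 1.00, 0.172, 0.309, 0.0664 and 0.117). They also ended for Hk1 in KO OGD and WT OGD (adjusted p = 0.238 and 0.0837), for Pgk1 in KO OD and KO OGD (adjusted p = 0.202 and 0.0790), and for Pfkl in WT OGD and WT TG, where the fold fell under 2 (0.95 and -0.82 on the log2 scale).

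The duplicates of several members differed in a fixed direction. Replicate 2 was above replicate 1 in 12 of 12 groups for the second probes of Hk1 (median 0.91 on the log2 scale) and Pfkp (median 0.85) and for another Pgk1 probe (median 0.30), as it was for 3.44% of all genes by their representative probes. For the representative probes it was above in 11 of 12 groups for Hk1 (median 0.56) and Pfkl (0.32), in 10 of 12 for Slc2a1 and Pgk1, in 8 of 12 for Pfkp, Ldha and Pdk1 and in 4 of 12 for Aldoa and Slc2a3. The widest gap was 2.69 for the second Pfkp probe in KO OD, and 1.52 among the representative probes, for Pfkp in the same group. What set the duplicates apart was not tested.

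**Figure D4:**
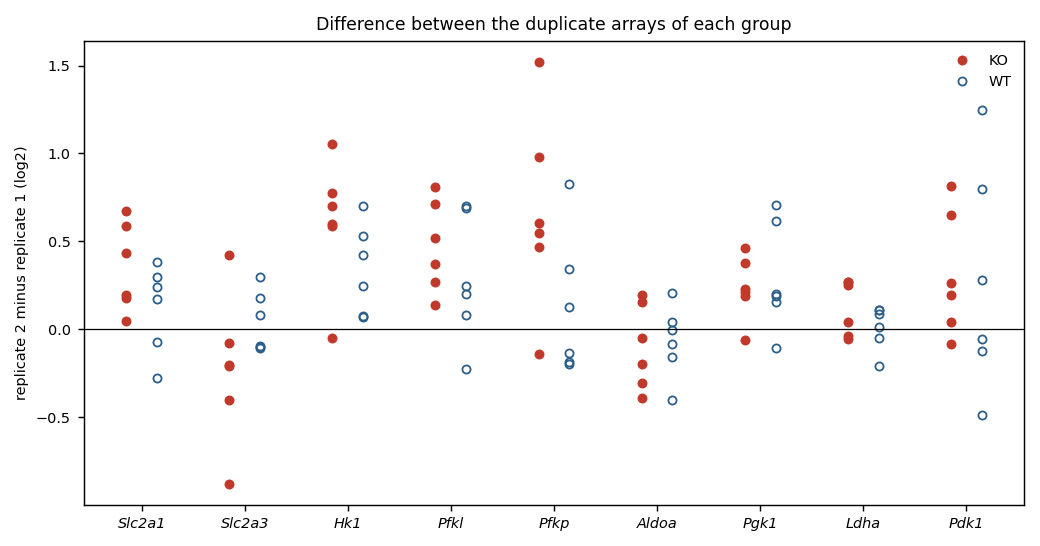
Difference between replicate 2 and replicate 1 on the log2 scale for the representative probe of each gene, with 6 KO groups (filled) left of 6 WT groups (open). Hk1 and Pfkl lie above 0 in 11 of 12 groups, and the highest point is 1.52 for Pfkp.

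No member was called in glucose deprivation alone. By limma, 0 of 9 members were called in KO and 0 of 9 in WT, and 1 and 0 had an unadjusted p under 0.05. Of all 13114 genes, 141 in KO and 308 in WT had such a p. The largest changes of members were 0.52 for Slc2a1 in KO and -0.41 for Pfkp in WT. The median over members was 0.18 in KO and -0.02 in WT, against -0.01 and 0.00 over all genes. Among all genes, Txnip was the 1 gene called in either genotype (0.00763%). Txnip encodes an arrestin-like protein that restrains glucose uptake and whose transcription follows glucose. Its signal was 393 and 296 in KO GD against 6213 and 4822 in untreated KO cells (log2 fold change -4.00, SE 0.20, adjusted p = 5.45e-08), and 486 and 624 in WT GD against 5217 and 3510 in untreated WT cells (-2.96, adjusted p = 4.69e-06).

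Loss of glucose on top of oxygen deprivation gave 1 call among the members, in KO cells. Slc2a3 was called 2.60-fold higher in KO OGD than in KO OD (log2 fold change 1.38, adjusted p = 0.0179), while 0.259% of all genes were called higher and 0.114% lower. This call ended without KO OD replicate 2 (1.27, adjusted p = 0.211) or the second KO OGD array (1.17, adjusted p = 0.282). Slc2a1 was 2.14-fold higher in KO (1.10, adjusted p = 0.0526) and 1.76-fold higher in WT (0.82, adjusted p = 0.0482), which missed the rule for a call, and its arrays did not overlap in either genotype. In KO it was called with the replicate number as a block (adjusted p = 0.00871) and without KO OGD replicate 1 (1.39, adjusted p = 0.0168). Pdk1 went the other way in WT, with 49.6% of the OD signal in OGD (-1.01, adjusted p = 0.108; called with the replicate number as a block, adjusted p = 0.0379), and changed by -0.32 in KO. No member was called in WT by limma, where 1.46% of all genes were called higher and 2.32% lower. There 2 of 9 members had an unadjusted p under 0.05, as had 2959 of all 13114 genes. Txnip was at 257 and 233 in KO OGD against 11585 and 12532 in KO OD, and at 231 and 216 in WT OGD against 8842 and 8625 in WT OD. It was called higher in OD and lower in OGD than in untreated cells of both genotypes.

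The broad rise was seen again when oxygen-deprived cells without glucose were compared with cells lacking glucose alone. In OGD against GD, 8 of 9 members were called higher in KO, where 0.709% of all genes were called higher and 0.0229% lower, and 6 of 9 in WT, where 1.43% were called higher and 1.09% lower. The comparisons share their OGD arrays with those above. In KO the comparison crossed chips, so chip and oxygen deprivation cannot be told apart there. The 8 in KO were all measured members but Ldha, with log2 fold changes between 1.07 for Pgk1 and 2.68 for Slc2a1. The 6 in WT were Slc2a1, Hk1, Pfkl, Pfkp, Aldoa and Pdk1, between 1.39 for Aldoa and 2.41 for Pfkp. With the mean of a gene's probes in place of the representative probe, 5 members were called in KO and 3 in WT. The calls lost were those of Hk1, Pfkp and Pgk1 in KO (adjusted p = 0.374, 0.248 and 0.318) and of Hk1, Pfkp and Pfkl in WT, where Hk1 and Pfkp had an adjusted p of 0.104 and 0.0504 and Pfkl a log2 fold change of 0.87. In KO the calls of Hk1, Pfkl, Pfkp, Pgk1 and Pdk1 ended without KO GD replicate 1 (adjusted p = 0.277, 0.0562, 0.199, 0.441 and 0.0503). Those of Hk1, Pfkp and Pgk1 were also lost when KO OGD replicate 2 was left out (adjusted p = 0.315, 0.279 and 0.279), those of Pfkp and Pgk1 without KO GD replicate 2 (0.0541 and 0.0787) and that of Pgk1 without KO OGD replicate 1 (0.108). In WT the calls of Hk1, Pfkl and Pdk1 ended without WT GD replicate 1 (adjusted p = 0.0901, 0.153 and 0.107) and those of Hk1 and Pfkl without WT OGD replicate 2 (0.0902 and 0.0686).

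**Figure D5:**
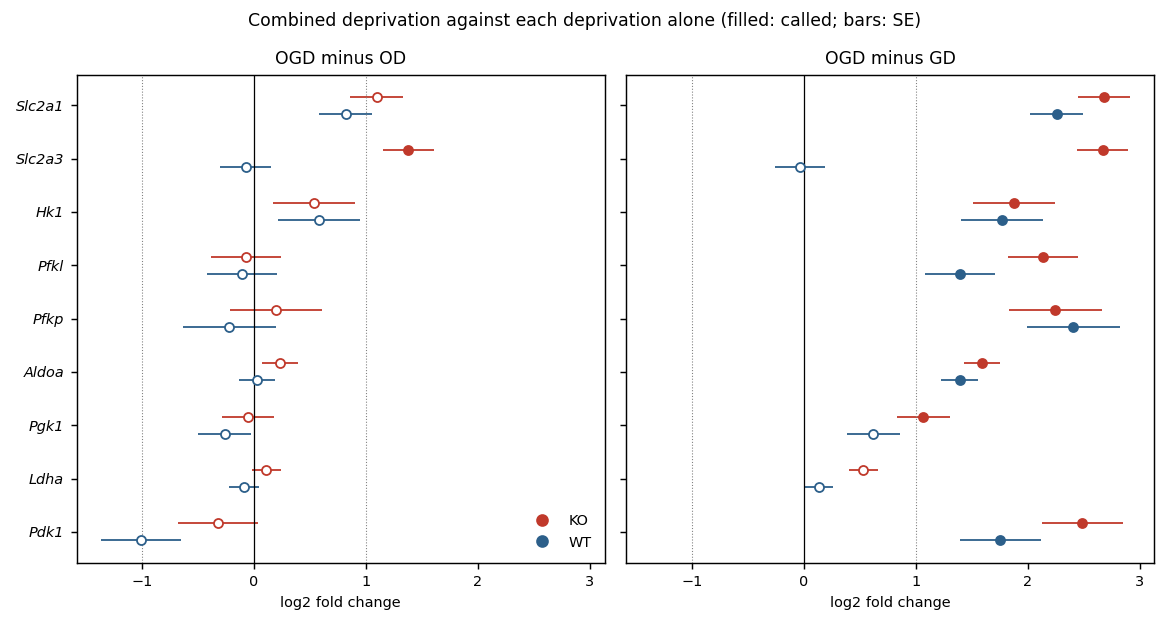
Log2 fold change of OGD over OD (left) and over GD (right) for each gene, with KO above WT, bars for the standard error and filled points for called genes. Left, the called point is Slc2a3 in KO at 1.38; right, most points lie beyond 2-fold.

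Endoplasmic reticulum stress moved few members. With TG, 1 of 9 was called lower in KO (Slc2a3; 2.39% of all genes were) and 1 of 9 in WT (Pfkl; 1.76% of all genes were), and none was called higher, as 3.08% of all genes were in KO and 2.15% in WT. With TM, 0 of 9 were called in KO and 0 of 9 in WT by limma, with 4 and 2 at an unadjusted p under 0.05. Of all 13114 genes, 2713 in KO and 2182 in WT had such a p. With TM, 1.85% of all genes were called higher and 1.39% lower in KO and 1.59% and 1.04% in WT. Median log2 fold changes were -0.31 in KO TG, -0.35 in WT TG, -0.25 in KO TM and -0.24 in WT TM. Differences between the KO and WT responses to the 5 stresses were compared for the 8 members measured in both genotypes. By limma, 0 of 8 were called in OD, GD, OGD, TG and TM, with 0, 0, 5, 2 and 2 at an unadjusted p under 0.05. The same test called 0 of 13114 genes in OD and in GD (147 and 97 at an unadjusted p under 0.05). Over all genes it called 0.00763% higher and 0.0153% lower in OGD, 0.29% and 0.206% in TG and 0.374% and 0.259% in TM. Of the 13114 genes, 751 in OGD, 1048 in TG and 1114 in TM had an unadjusted p under 0.05.

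Of 17 other glycolytic enzymes measured, Pgam1 and Eno2 were called in oxygen deprivation. In OD, 1 of 17 was called higher in KO, against 0.297% of all genes, and 1 of 17 in WT, against 0.252%, in both cases Pgam1, the phosphoglycerate mutase. In OGD, 2 of 17 were called higher in each genotype, Pgam1 and the enolase Eno2, against 1.01% of all genes in KO and 2.22% in WT. Pgam1 rose 2.34-fold in KO OGD (adjusted p = 0.000751) and 2.13-fold in WT OGD (adjusted p = 0.00109). Eno2 was at 2123 and 3112 in KO OGD, 977 and 893 in KO OD and 654 and 570 in untreated KO cells, and at 1684 and 1508, 402 and 420, and 401 and 326 in the same WT groups. It rose with loss of glucose on top of oxygen deprivation, by 1.46 in KO (adjusted p = 0.00289) and 1.95 in WT (adjusted p = 3.48e-05) on the log2 scale. With TG, Pgam1 and Pfkm, another phosphofructokinase subunit, were called lower in KO and Pfkm in WT. Of all genes, 2.39% were called lower in KO TG and 1.76% in WT TG. The median over these 17 genes was 0.14 in KO OGD and 0.13 in WT OGD.

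Of 10 measured genes for the entry of pyruvate into mitochondria, Pdk4 was called higher in KO than in WT in all 6 conditions. Of all genes, 2.35% were called higher in untreated cells, 2.25% in OD, 2.14% in GD, 3.10% in OGD, 3.19% in TG and 3.67% in TM. Pdk4 is a relative of Pdk1, and it was at 437 to 1530 on the KO arrays and at 166 to 223 on the WT arrays, all of which lay below the background level. It was at least 5.85-fold higher in KO with TG (adjusted p = 5.19e-08) and at least 2.24-fold higher in untreated cells (adjusted p = 5.27e-05). Its probe exceeded the background level on KO arrays alone, and the adjusted p values belong to the fitted differences, not to these bounds. No gene of this list was called in OD or OGD against untreated cells. Of 7 other glucose and lactate transporters measured, Slc2a6 was the gene called, with TG and TM in both genotypes. These calls were higher, as were 3.08% of all genes in KO TG, 2.15% in WT TG, 1.85% in KO TM and 1.59% in WT TM. Slc2a6 was also called higher in KO than in WT with TG, as were 3.19% of all genes. It was at 4871 and 4362 in KO TG against 327 and 279 in untreated KO cells (log2 fold change 3.93, adjusted p = 2.33e-06), and at 1665 and 1277 in WT TG against 329 and 585 in untreated WT cells (1.73, adjusted p = 0.00469).

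Among 23 measured genes of glycogen, pentose phosphate and hexosamine metabolism, Pgm1, the phosphoglucomutase of glycogen turnover, rose with oxygen deprivation in both genotypes. It rose 4.95-fold in KO OD, 5.19-fold in KO OGD, 5.04-fold in WT OD and 5.18-fold in WT OGD (adjusted p = 0.00126, 0.000367, 0.00127 and 0.000199). Ppp1r3c, which directs a phosphatase to glycogen, was called higher in KO OD and KO OGD, at 1759 and 1255 and at 1881 and 1872 against 313 and 610 in untreated KO cells. In WT it stayed between 220 and 296. Of the 23 genes, 2 were called higher in KO OD and 1 in WT OD, against 0.297% and 0.252% of all genes. In OGD, 2 were called higher in each genotype, against 1.01% in KO and 2.22% in WT, with Gbe1 called besides Pgm1 in WT. Gfpt1 was called higher with TG and TM in both genotypes, and Uap1 with TG in KO. With TG, 3.08% of all genes were called higher in KO and 2.15% in WT, and with TM 1.85% and 1.59%. Of 16 regulators measured, Egln1 was called higher in OGD in both genotypes (log2 fold change 1.84 in KO, adjusted p = 0.00743, and 1.65 in WT, adjusted p = 0.00596). Egln3, a HIF-1 target and a substrate of Siah ligases, was at 3628 and 7817 in KO OGD against 1155 and 203 in WT OGD (3.46, adjusted p = 0.00138), with WT duplicates far apart. The WT value of 203 lay below the background level of 235, so the fitted difference includes an unmeasured value. This comparison also crossed chips.

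Group means across the 12 groups gave a similar picture of which genes went together. Among the 36 pairs of members, Pearson's r over the 12 log2 group means was highest for Aldoa and Pgk1 (0.97), Hk1 and Pfkl (0.95) and Slc2a1 and Aldoa (0.95). The lowest values were those of Slc2a3 with Pfkp (-0.01), Ldha (0.11) and Pgk1 (0.23). These values are across groups that share chips and duplicates and are given as a description. Of 4825 genes whose group means spanned at least 1 on the log2 scale, those most like Slc2a1 were Ankrd37 (0.97), P4ha1 (0.96) and Mboat2 (0.96). Most like Pfkp were Hikeshi (0.98), Sap30 (0.97) and Ankrd37 (0.96), and most like Pdk1 were Bnip3l (0.96), Ndrg2 (0.95) and Kdm3a (0.95). Most like Slc2a3 were Cacna1h (0.98), Ripor2 (0.98) and Pde1b (0.97). All WT group means of Slc2a3 lay below the background level. So did the lowest group means of Cacna1h and Ripor2, while that of Pde1b lay above it. Each r of Slc2a3 given here, high or low, therefore includes the step between measured KO groups and unmeasured WT groups. How far that step set these values was not tested.

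The group means of Slc2a3 spanned at least 15.97-fold, with its WT groups at the background level, those of Pfkp 12.4-fold, Slc2a1 10.5-fold, Pdk1 10.4-fold, Pfkl 10.1-fold, Hk1 6.19-fold, Aldoa 4.97-fold, Pgk1 3.70-fold and Ldha 3.20-fold. With the groups of a gene ordered by their means, most neighbours could not be told apart by their arrays. Of 11 neighbouring pairs, 5 did not overlap for Slc2a1 and Aldoa, 4 for Slc2a3, Ldha and Pdk1, 3 for Pfkp, 2 for Pfkl and Pgk1 and 1 for Hk1.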

How the data were processed

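Gene expression was measured on 24 Illumina Mouse-6 BeadChip arrays, 2 for each of 12 groups of genotype and treatment. The authors hybridised biotin-labelled cRNA and processed the scans in GenomeStudio (version not given in the sources used here), and the deposited values are normalized intensities on a linear scale. After sorting each array, values of equal rank had a median range of 0.0816% between arrays and a largest range of 4.47%. A second table, with 48 columns of un-normalized signals and detection p, was not used, because its column names match no sample label.

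Groups were taken from the sample labels. Gene symbols came from the platform annotation: 34885 probes had 1 gene, 18 several and 10378 none, and 34807 were matched to RefSeq by gene ID. The background mode was 182, its spread 0.157 (log2), and the background level 235; a probe was kept if it exceeded this level on any array (25971 of 45281, 57.4%; 21478 with 1 gene, covering 13114 genes). A fold against a group whose arrays all lay below the level was computed from the level as a lower bound. Log2 values of all 24 arrays were fitted with 12 group means in limma 3.58.1 under R 4.3.3, with 12 residual and 3.46 prior degrees of freedom. Benjamini-Hochberg adjustment ran over every kept probe, separately for each comparison, and percentages of all genes use 13114 genes. Tested on simulated data for KO OD against untreated KO cells (25971 probes), the fit called 35 of 100 probes changed 2-fold, 94 of 100 changed 4-fold and 9 unchanged ones. The simulated noise was independent between arrays and had the same spread in all groups for a probe. It thus lacked the unequal spread of the groups and the shared deviations of same-numbered arrays, and the rates may differ in the data. The number of arrays limits the precision. Same-numbered arrays deviated together in all 66 pairs of groups (r of 0.137 to 0.768, median 0.379). The labels do not say what a number shares, and it may follow the chip. The main fit has no block, and values with the number as a block are given where a call changed. A difference between responses was given for members above the level in both genotypes.

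All members were described in every group. From the other lists, some of the called genes were named, up to 4 in a comparison. Counts called were given for part of these lists. For the 4 members with the widest range of group means, the 3 genes with the most similar pattern were named. Members and lists were chosen with earlier results of these data known. Alternatives covered the filter on dim probes, the background, the arrays in the fit, the replicate block (also within each pair of chips, chosen after seeing the data), the variance prior, the scaling, the probe of a gene, the call rule and each array left out.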

Additional observations from a re-analysis of the deposited data

How the results depend on the processing

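Over all members and comparisons of a kind, 7 results were called for KO against WT, 16 for KO stress, 12 for WT stress, 1 for the difference between responses (Slc2a3 in OGD, where its WT arrays lay below the background level, so that no difference is reported) and 15 for OGD against OD or GD, 51 in all. None of the 51 reversed under any alternative; of the 174 results not called, 68 changed sign under an alternative, the largest of them at 0.59 on the log2 scale. A fit of only the arrays of the groups compared left 0 calls for KO stress, WT stress, the difference between responses and OGD against OD or GD. For KO against WT it called 1 member higher in OD and 1 in OGD, 1 lower in TG and 2 lower in TM. It called 0 in untreated cells and in GD. Pfkp in TG (adjusted p = 0.00131) and TM (0.000503) was called there and not in the main fit. Over all genes that fit called 0 in KO OD, 3 in KO OGD, 0 in WT OD and 0 in WT OGD against untreated cells. The mean of a gene's probes in place of its brightest probe left 7 calls for WT stress. For KO against WT, an adjusted p with no fold threshold gave 14 calls and an unadjusted p with 2-fold gave 11, and an unadjusted p with 2-fold gave 7 for the difference between responses. With each array left out in turn the counts ranged between 5 and 10 for KO against WT, 11 and 16 for KO stress, 5 and 12 for WT stress, 0 and 3 for the difference between responses and 11 and 16 for OGD against OD or GD. With the background mode subtracted, calls ended for Pfkl and Pfkp in WT OD (adjusted p = 0.0725 and 0.0887), Pfkp and Pgk1 in KO OD (0.0743 and 0.0536), Pdk1 in WT OGD (0.0558), Pfkp in KO over WT in OD (0.101) and Slc2a3 in KO OGD over OD (0.0512), among others. With no filter on dim probes they ended for Pfkl and Pfkp in WT OD (0.0556 and 0.0527), Pfkp in KO OD (0.0768) and in KO over WT in OD (0.0727) and Pgk1 in KO OGD over GD (0.0626). Under the replicate block none of the 51 calls was lost and 8 were added, which gave 11 calls for KO against WT: Pfkp in 4 conditions, Hk1 in KO OD and WT OD, Slc2a1 in KO OGD over OD and Pdk1 in WT OGD over OD, and no other member call changed. Over all genes that block gave 50 calls against 33 in WT OD, 270 against 173 in KO OGD and 125 against 49 in KO OGD over OD. For the difference between responses it gave 6 calls against 3 in OGD, 156 against 65 in TG and 181 against 83 in TM. A block fitted within each pair of chips, chosen after seeing the data, also kept all 51 calls. It gave 11 calls for KO against WT and 2 for the difference between responses, where Pdk1 with TM was added (1.68, adjusted p = 0.0304). Folds of Slc2a3 against WT are bounds, since its WT signal lay below the background level.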
